A study of Mus musculus with 6 samples.

Results

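The genes described here are 10 identity and output genes of parvalbumin (PV) interneurons: Lhx6, Sox6, Erbb4, Ppargc1a, Mef2c, Eya4, Syt2, Cplx1, Btbd11 and Nxph1. They were taken by symbol from what is known of these cells, leaving aside Pvalb itself and the ion channels, and all 10 were found among the 38355 genes listed in the counts. RNA was sequenced from whole cortical hemispheres of C57BL/6 mice, an inbred wild-type strain, with 3 samples from mice of 6 months and 3 samples from mice aged 16 months. The mice carried no engineered allele and received no agent besides the anaesthetic given to all before dissection. Age is the only difference between the groups that the labels give. Some markers of regions next to the cortex were also higher at 16 months, and whether the dissection differed between the ages was not tested. A deposited housing note calls the younger group 3 months old, whereas the labels of the samples and the study use 6 months. All 10 genes passed the filter on low counts, which kept 17120 genes.

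PV interneurons are fast-spiking inhibitory cells that contact the soma, proximal dendrites and axon initial segment of excitatory neurons. Together with the somatostatin cells they are born in the medial ganglionic eminence (MGE) of the embryonic telencephalon, where the transcription factor Nkx2-1 switches on Lhx6, which in turn acts upstream of Sox6 in migrating and maturing cells. In the adult cortex, PV cells carry the neuregulin receptor ErbB4, depend on the coactivator PGC-1α (the product of Ppargc1a) for the expression of Pvalb and of synaptic genes such as Syt2 and Cplx1, and release GABA with short delay and high precision. The question that the age comparison puts to these genes is whether transcripts that define the cells differ between 6 and 16 months in the same tissue in which Pvalb does.

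Because PGC-1α is a coactivator for the oestrogen-related receptors, the upstream sequences of its outputs Syt2, Cplx1 and Pvalb are shown. These are the 250 bases before the most upstream RefSeq start of each gene, read on the strand of the gene (GRCm38.p6): chr1:134646362-134646611 on the plus strand for Syt2, chr5:108550028-108550277 on the minus strand for Cplx1, and chr15:78206401-78206650 on the minus strand for Pvalb. Capitals mark a match, on either strand, to the receptor element TNAAGGTCA or to the MEF2 core CTAAAAATA.
Syt2: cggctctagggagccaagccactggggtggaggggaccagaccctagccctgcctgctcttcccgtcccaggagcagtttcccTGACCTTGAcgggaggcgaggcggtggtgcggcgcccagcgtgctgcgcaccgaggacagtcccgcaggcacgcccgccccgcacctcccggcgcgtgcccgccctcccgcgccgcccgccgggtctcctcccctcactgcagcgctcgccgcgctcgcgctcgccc
Cplx1: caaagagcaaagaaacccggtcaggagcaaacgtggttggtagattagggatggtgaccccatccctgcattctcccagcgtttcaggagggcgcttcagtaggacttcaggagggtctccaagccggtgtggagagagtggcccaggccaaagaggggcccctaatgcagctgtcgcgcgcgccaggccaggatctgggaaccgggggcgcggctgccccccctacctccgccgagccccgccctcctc
Pvalb: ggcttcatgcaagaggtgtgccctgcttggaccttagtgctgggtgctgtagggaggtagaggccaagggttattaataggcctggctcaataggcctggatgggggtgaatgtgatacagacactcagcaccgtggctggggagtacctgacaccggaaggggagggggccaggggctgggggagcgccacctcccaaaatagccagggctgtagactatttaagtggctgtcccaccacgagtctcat
The receptor element was present in 1 of the 10 identity genes, Syt2, where it reads TGACCTTGA, the reverse complement, and begins 167 bases before the start. Of 27025 mouse promoter windows of the same length, 1.13% held the element and 0.455% held the MEF2 core, which was in none of the 10. The windows for Cplx1 and Pvalb held neither, which says only that these letters are not in these 250 bases. In base composition the windows of the identity genes ran from 33.6% GC in Mef2c to 76.0% GC in Syt2, around a median of 52.0% over all windows.

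None of the 10 identity genes was called between the ages (0 of 10), where the quasi-likelihood test of edgeR, at a threshold of 0.05 after Benjamini-Hochberg adjustment, called 286 of 17120 genes, 1.67%, with 0.783% higher and 0.888% lower at 16 months. At an unadjusted p under 0.05, 1 of the 10 passed (Eya4), beside 17.4% of all tested genes. DESeq2's Wald test also called 0 of the 10. In 9 of the 10 genes the samples of the ages overlapped, and in 1, Eya4, they lay apart. Among all tested genes the ages lay apart in 23.7%. The median log2 fold change (16 over 6 months) was 0.020 over the identity genes and 0.0014 over all tested genes, and the median absolute log2 fold change was 0.068 and 0.0998. Leaving Eya4 aside, the 95% intervals of the changes reached from −17.0% at the lowest (Erbb4) to 20.9% at the highest (Btbd11). These are the extremes of different genes, and other intervals were narrower, such as that of Syt2 (−8.30% to 9.39%). For each gene, changes within its own interval could not be resolved with 3 samples per age. For comparison, Pvalb, which encodes the calcium buffer that names the cells, was 43.5, 41.5 and 42.8 CPM (counts per 1000000 after TMM scaling) in replicates 1 to 3 at 6 months and 17.5, 18.7 and 19.0 CPM at 16 months. Its log2 fold change was −1.21 ± 0.058 (SE, n = 3 per age; adjusted P = 1.5e-05 by edgeR's quasi-likelihood test). In bulk tissue, fewer cells of a type and less RNA per cell cannot be told apart.

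**Figure D1:**
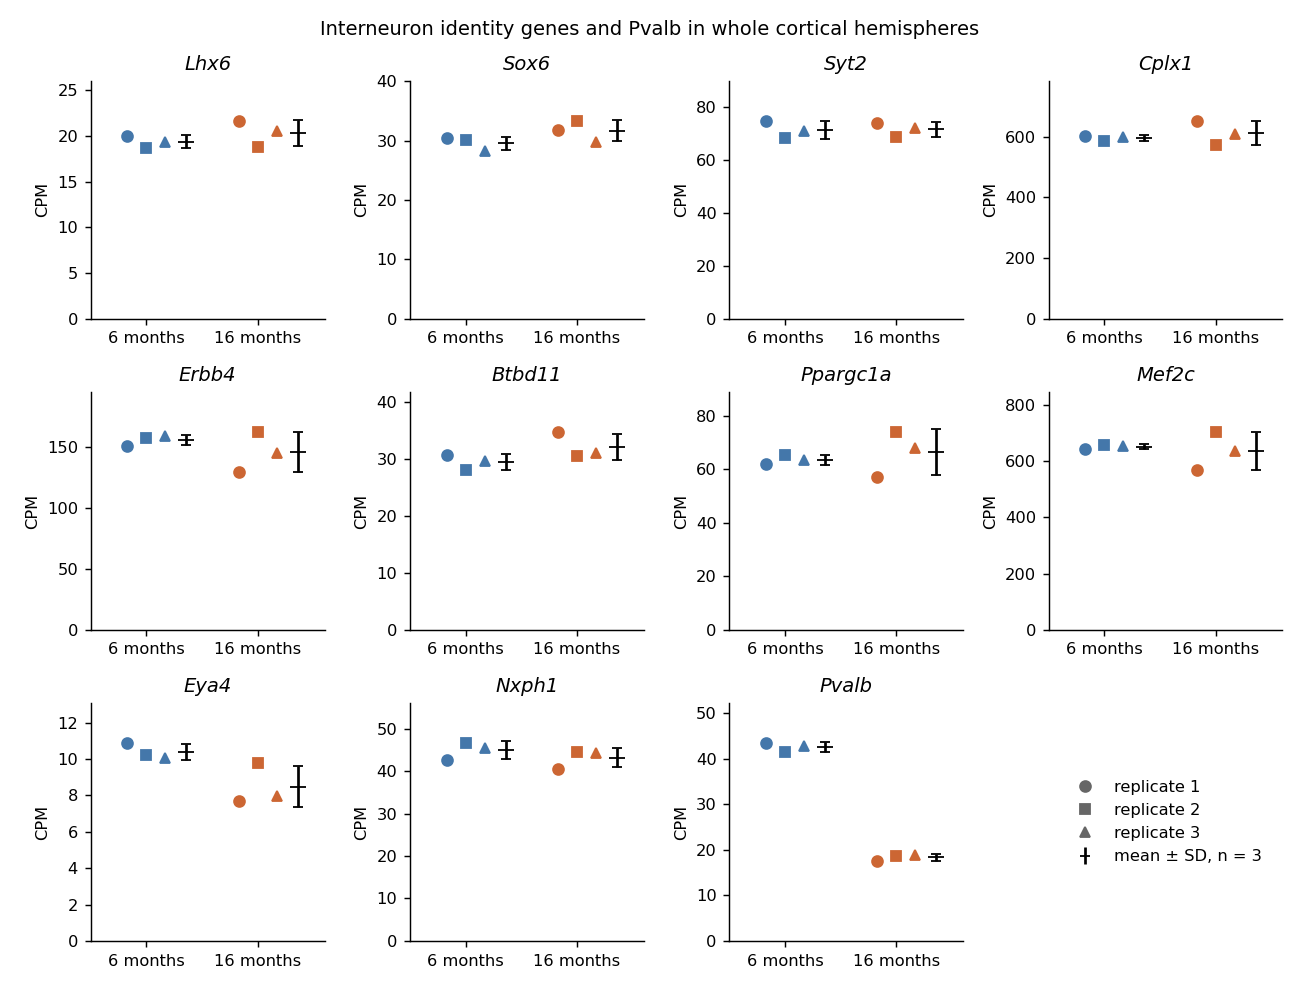
CPM of the 10 identity genes and of Pvalb in each sample (points), with mean ± SD at the side (n = 3 per age, every axis starts at 0). Marker shape gives the replicate number, for which the labels name no link between mice across ages. The ages overlap in 9 of the 10 identity genes, whereas the samples at 16 months lie between 17.5 and 19.0 CPM for Pvalb, all below the 41.5 to 43.5 CPM at 6 months.

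Among the lineage transcription factors, Lhx6 (ENSMUSG00000026890, chr2:36081953-36105408, minus strand, GRCm38), the LIM-homeodomain factor that specifies MGE-derived interneurons, was 20.1, 18.7 and 19.4 CPM at 6 months and 21.7, 18.9 and 20.6 CPM at 16 months. The values of the ages interleave. The log2 fold change was 0.07 ± 0.069 (95% interval −0.084 to 0.23; adjusted P = 0.649, edgeR). The exons of Lhx6 share 2.16% of their length with those of Gm27953 on the same strand; the other 9 genes share no exon sequence with an annotated gene on either strand.

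Sox6 (ENSMUSG00000051910, chr7:115470872-116038796, minus strand), an SRY-box factor needed for the positioning and maturation of PV and somatostatin cells, was 30.4, 30.0 and 28.3 CPM at 6 months and 31.8, 33.4 and 29.8 CPM at 16 months. Replicate 3 was the lowest sample at both ages, and replicate 3 at 16 months lay within the range at 6 months. The log2 fold change was 0.10 ± 0.063 (95% interval −0.042 to 0.24; adjusted P = 0.464, edgeR).

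Mef2c (ENSMUSG00000005583, chr13:83504034-83667080, plus strand), an activity-regulated MADS-box factor that marks PV precursors early but is also strong in excitatory neurons of the cortex, was 642, 658 and 656 CPM at 6 months and 568, 705 and 637 CPM at 16 months. The lowest and the highest of the 6 values were both at 16 months. Its SD on the log2 scale was 0.0187 at 6 months and 0.156 at 16 months, while the log2 fold change was −0.034 ± 0.073 (95% interval −0.196 to 0.129; adjusted P = 0.852, edgeR).

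Eya4 (ENSMUSG00000010461, chr10:23102963-23350786, minus strand), a phosphatase and transcriptional coactivator of the Eya family that works with the sine oculis homeobox factors, was the least abundant of the 10 genes, with 255 to 510 counts per sample. It was 10.88, 10.20 and 10.04 CPM at 6 months and 7.69, 9.76 and 7.96 CPM at 16 months. All 3 samples at 16 months lay below all 3 at 6 months, which 11.5% of all tested genes also did. Replicate 2 at 16 months stood close to the lowest sample at 6 months, and the other 2 stood lower. The log2 fold change was −0.30 ± 0.097 (95% interval −0.51 to −0.080, or −29.9% to −5.40%), with an adjusted P of 0.16 in edgeR's quasi-likelihood test, so it did not pass. Without replicate 2 at 16 months the change was −0.41 and the adjusted P 0.0111, where 12.7% of the genes tested were called. With any other single sample left out the adjusted P lay between 0.146 and 0.443, and without replicate 1 at 6 months or replicate 3 at 16 months the 95% interval reached past 0 (upper bounds 0.0067 and 0.0077). With offsets that bring genes of like GC content and length to a common level, it was −0.24 with an adjusted P of 0.0362.

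The receptor Erbb4 (ENSMUSG00000062209, chr1:68032186-69108059, minus strand), through which neuregulins promote excitatory input to PV cells, was 150, 157 and 159 CPM at 6 months and 129, 162 and 145 CPM at 16 months. Replicate 1 at 16 months was the lowest of the 6 samples and replicate 2 at 16 months the highest. The log2 fold change was −0.095 ± 0.078 (95% interval −0.268 to 0.078; adjusted P = 0.573, edgeR).

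Ppargc1a (ENSMUSG00000029167, chr5:51454250-51567726, minus strand), which encodes the coactivator of mitochondrial and synaptic genes in PV cells, was 61.8, 65.2 and 63.4 CPM at 6 months and 57.02, 73.95 and 68.07 CPM at 16 months. The samples at 6 months fell inside the range at 16 months. Its log2 fold change was 0.065 ± 0.085 (95% interval −0.125 to 0.256; adjusted P = 0.741, edgeR), and its SD at 16 months, 0.191 on the log2 scale, was the largest of the 10 genes.

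Of the synaptic output genes, Syt2 (ENSMUSG00000026452, chr1:134646677-134762593, plus strand), the fast calcium sensor of release at PV terminals, was 74.8, 68.2 and 70.9 CPM at 6 months and 74.0, 68.5 and 71.9 CPM at 16 months. The means were 71.3 ± 3.31 and 71.5 ± 2.76 CPM (SD, n = 3). This was the member with the smallest difference, a log2 fold change of 0.0022 ± 0.057 (95% interval −0.125 to 0.13; adjusted P = 0.989, edgeR), which bounds the change between −8.30% and 9.39%.

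Cplx1 (ENSMUSG00000033615, chr5:108518554-108550024, minus strand), a complexin that clamps and promotes SNARE-driven fusion and is used by many neurons besides PV cells, was 604, 585 and 599 CPM at 6 months and 653, 574 and 609 CPM at 16 months. Replicates 1 and 2 at 16 months were the highest and the lowest sample. The log2 fold change was 0.038 ± 0.057 (95% interval −0.090 to 0.165; adjusted P = 0.779, edgeR).

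Btbd11 (ENSMUSG00000020042, chr10:85386814-85660292, plus strand), a BTB-domain protein found at excitatory synapses onto inhibitory interneurons, was 30.7, 28.0 and 29.7 CPM at 6 months and 34.7, 30.5 and 31.1 CPM at 16 months. Replicate 2 at 16 months lay within the range at 6 months and the other replicates of that age above it. Its log2 fold change of 0.12 ± 0.068 (95% interval −0.030 to 0.274; adjusted P = 0.394, edgeR) was the highest of the 10.

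Nxph1 (ENSMUSG00000046178, chr6:8948431-9249032, plus strand), a secreted ligand of α-neurexins made by inhibitory neurons, was 42.8, 46.7 and 45.6 CPM at 6 months and 40.6, 44.6 and 44.3 CPM at 16 months. The sample ranges overlap. The log2 fold change was −0.059 ± 0.062 (95% interval −0.196 to 0.078; adjusted P = 0.671, edgeR).

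**Figure D2:**
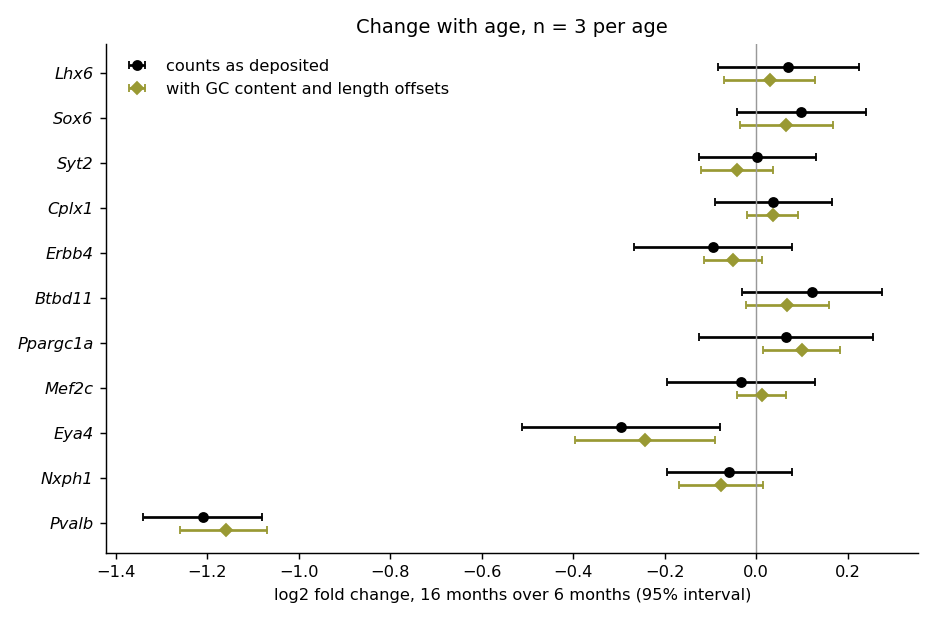
log2 fold change (16 over 6 months, n = 3 per age) of the identity genes and Pvalb with 95% intervals, from the counts as deposited (circles) and with offsets for GC content and length (diamonds). The intervals of 9 identity genes cross 0 without offsets, that of Eya4 runs from −0.51 to −0.080, and that of Pvalb from −1.34 to −1.08, apart from all of them.

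The levels of the genes differed far more from each other than between the ages. As CPM per 1000 bases of exon, Cplx1 stood at 272 ± 4.52 and Eya4 at 1.10 ± 0.0475 at 6 months (SD, n = 3), a ratio of 247. Mef2c followed Cplx1 at 41.5 ± 0.535 and Erbb4 at 12.6 ± 0.353 CPM per 1000 bases. Ppargc1a (9.62 ± 0.259), Nxph1 (9.47 ± 0.425) and Syt2 (9.34 ± 0.433) could not be ordered, since their sample ranges overlapped. Below them came Lhx6 at 4.03, Btbd11 at 2.94, Sox6 at 1.99 and Eya4, each apart from its neighbours. At 16 months the order was the same except that Syt2 (9.36 ± 0.362) and Nxph1 (9.08 ± 0.471) changed places within their overlap, and that the ranges of Erbb4 (11.8 ± 1.34) and Ppargc1a (10.1 ± 1.30) overlapped too. These levels are sums over all cells of the hemisphere, and for none of the 10 genes was the part of PV cells measured. Mef2c, Cplx1 and Ppargc1a, among others, are also transcribed outside PV cells.

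The level of Pvalb per unit of an identity gene is a measure within a sample, and since all such ratios share Pvalb they carry its difference between the ages. The ratio of Pvalb to Lhx6 in CPM was 2.17, 2.22 and 2.21 at 6 months and 0.808, 0.990 and 0.923 at 16 months. The ratio of Pvalb to Syt2 was 0.582, 0.608 and 0.604 at 6 months and 0.237, 0.272 and 0.264 at 16 months. In each of the 10 ratios the samples at 16 months lay below those at 6 months, and so they did for the ratio of Pvalb to 97.2% of the other tested genes, so the separation says nothing particular about the identity genes. The difference of the log2 ratios, 16 minus 6 months, ran from −1.34 for Btbd11 to −0.914 for Eya4. The ratio to Eya4 was 4.11 ± 0.139 at 6 months and 2.19 ± 0.247 at 16 months (SD, n = 3).

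At 16 months the spread of the 10 genes followed base composition. In 9 of the 10 the SD of the log2 level was larger at 16 than at 6 months, as in 75.5% of all tested genes. Replicate 1 at 16 months held the highest value at that age in 4 genes and the lowest in 5, and replicate 2 the highest in 6 and the lowest in 4. The 4 members with under 42% GC in their exons (Erbb4, Mef2c, Eya4 and Ppargc1a) all had replicate 1 lowest and replicate 2 highest at 16 months. The 3 members over 55% GC (Lhx6, Cplx1 and Btbd11) had replicate 1 highest at that age.

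Across the 10 genes, the deviation from the mean at 16 months correlated with exon GC content with r = 0.954 in replicate 1, −0.981 in replicate 2 and 0.021 in replicate 3. This is a description over 10 genes, which share their libraries and are not independent replicates; deviations within an age also sum to 0. Over all tested genes with a GC value the same correlations were 0.588, −0.582 and −0.055 at 16 months, and between −0.13 and 0.16 at 6 months. For the 10 genes alone the correlation at 6 months was not taken. Their deviations at 6 months reached at most 0.0727. Among the members under 42% or over 55% GC, replicates 1 and 2 at 6 months mostly leaned the same way as at 16 months. They did so in Btbd11 (0.060 and −0.072), Lhx6 (0.050 and −0.053) and Cplx1 (0.019 and −0.027). The same held for Mef2c (−0.021 and 0.013), Erbb4 (−0.046 and 0.015) and Ppargc1a (−0.038 and 0.039). Only Eya4 leaned the other way (0.069 and −0.023). The pattern is thus not shown to be particular to the older group. Of the 4 members under 42% GC, 3 were lower at 16 months, and all 3 members over 55% GC were higher, none of them past the threshold. The share of all tested genes in these GC ranges that were lower or higher was not taken. Other listed genes over 55% GC went both ways, such as Nrxn2 (62.4% GC, log2 fold change 0.26) and Hdac7 (60.2% GC, −0.30). The signs of these few members cannot decide whether the fold changes follow composition, and this was not tested.

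With offsets that set, in each sample, genes of like GC content and like exon length to a common median, the median SD of the 10 genes at 16 months went from 0.101 to 0.0288 on the log2 scale, and at 6 months from 0.0536 to 0.0343. Over all tested genes these medians went from 0.127 to 0.0752 and from 0.0626 to 0.0573. The largest deviation of any of the 10 genes at 16 months was 0.211 before and 0.0870 with the offsets. For Mef2c the log2 fold change with offsets was 0.012 ± 0.025 (95% interval −0.043 to 0.066), for Cplx1 0.036 ± 0.026 (−0.019 to 0.091), for Erbb4 −0.050 ± 0.030 (−0.113 to 0.013) and for Syt2 −0.042 ± 0.037 (−0.120 to 0.036). Ppargc1a was 0.099 ± 0.039 (0.016 to 0.183), with an adjusted P of 0.106 in edgeR's quasi-likelihood test. The only member called with the offsets was Eya4, where 14.2% of all tested genes were called. The offsets also remove any age difference that genes of one composition share, and how the GC dependence came about was not tested.

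**Figure D3:**
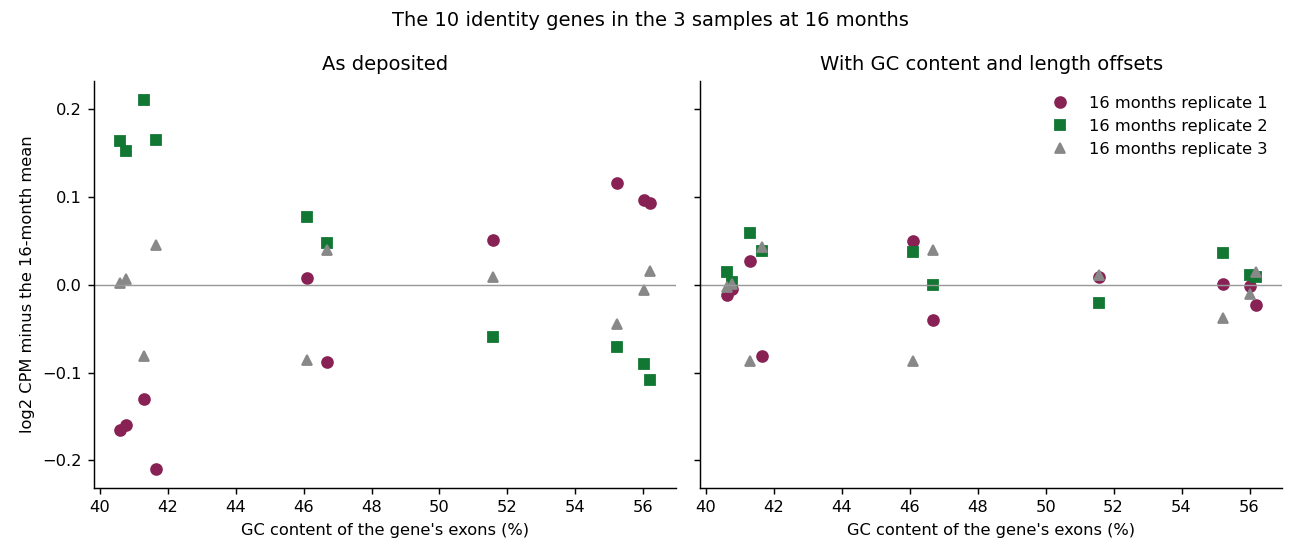
Deviation of each identity gene from its mean at 16 months (log2 CPM) against the GC content of its exons (%), in the 3 samples at 16 months, as deposited (left) and with GC content and length offsets (right). As deposited, replicate 1 rises and replicate 2 falls with GC content (r = 0.954 and −0.981 over 10 genes), and with the offsets no point is farther than 0.0870 from 0.

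The genes around the members were then examined in 9 lists of pathway partners and paralogs, 100 distinct tested genes in all, of which 3 were called higher and 1 lower, 4% beside the 1.67% of all tested genes. None of the 20 tested paralogs of the members was called (median log2 fold change 0.042, from −0.45 to 0.49). Cplx3, a complexin of deep-layer and retinal neurons, was 19.5, 19.4 and 19.5 CPM at 6 months and 16.7, 16.5 and 16.1 CPM at 16 months, a log2 fold change of −0.24 ± 0.058 with an adjusted P of 0.0755 (edgeR). Eya2 showed −0.45 ± 0.149 (adjusted P = 0.164), Erbb3 −0.22 ± 0.069 (0.153) and Lhx8 0.49 ± 0.369 (0.536), the last at 0.37 to 1.24 CPM. The closest relatives by role, Syt1 (0.078), Cplx2 (0.090), Sox5 (−0.046), Sox13 (0.063), Mef2a (−0.032), Mef2d (0.120), Egfr (0.025), Erbb2 (0.017), Abtb2 (0.235), Ppargc1b (0.158), Pprc1 (0.083), Eya1 (0.059), Eya3 (0.098), Nxph2 (−0.092), Nxph3 (−0.068) and Nxph4 (−0.331), gave log2 fold changes whose adjusted P lay at 0.300 or above in edgeR's test. Cplx4 and Mef2b did not pass the filter on low counts.

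Of 13 transcription factors of the MGE and of GABAergic precursors, 0 were called, with a median of 0.015. Their largest differences were in Lhx8 and Nkx2-1 (−0.37 ± 0.454, adjusted P = 0.720), the latter at 0.38 to 1.34 CPM. Of 21 tested further genes of PV cells, 1 fell and none rose (median 0.0069), where 1.67% of all tested genes were called. At an unadjusted p under 0.05 (edgeR), 10 of the 21 passed, beside 17.4% of all tested genes. The ages lay apart in 4 genes that were higher and 4 that were lower at 16 months, and in 23.7% of all tested genes. Without replicate 2 at 16 months, 7 of the list were called, where 12.7% of the genes tested were. The gene called with all samples was Plcxd3, a phospholipase-domain gene. It was 14.3, 14.1 and 14.3 CPM at 6 months and 10.98, 10.97 and 11.01 CPM at 16 months, with a log2 fold change of −0.37 ± 0.062 (adjusted P = 0.0193, edgeR). The adjusted P of Plcxd3 lay between 0.00467 and 0.137 over the alternatives and passed in 12 of 16, missing the threshold when any replicate at 6 months or replicate 3 at 16 months was left out.

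Of the 12 neuregulin and ErbB genes, 0 were called (median 0.0053). The largest differences were in the ligand Btc (−0.65 ± 0.212, adjusted P = 0.16) and in Dlg4 (0.24 ± 0.072, 0.133), the scaffold PSD-95 that binds ErbB4. Of the 13 genes of the PGC-1 and oestrogen-related receptor pathway, 0 were called (median 0.075), and the largest differences were in the receptor Esrrb (0.45 ± 0.124, 0.102) and in Ppargc1b. Of 6 neurexins and neurexophilins, 0 were called (median 0.011), with Nxph4 and Nrxn2 (0.26 ± 0.098, adjusted P = 0.211) the farthest from 0. Of 6 tested Mef2 genes and class IIa deacetylases, 0 were called (median 0.053), with Hdac7 at −0.30 ± 0.079 (0.0929) and Hdac4 at 0.18 ± 0.075 (0.265).

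Among 18 tested genes of transmitter release, 2 rose and none fell (median 0.073). Unc13c, a Munc13 priming factor, was 44.9, 46.9 and 48.2 CPM at 6 months and 60.6, 63.7 and 59.1 CPM at 16 months (log2 fold change 0.39 ± 0.056; adjusted P = 0.00991, edgeR). Doc2b, a calcium sensor of spontaneous release, was 32.1, 29.7 and 29.8 CPM against 41.5, 39.1 and 38.9 CPM (0.38 ± 0.059; adjusted P = 0.0136). Each passed in 12 of 16 alternatives and was lost in the same 4 as Plcxd3, with an adjusted P of up to 0.0899 for Unc13c and 0.124 for Doc2b. Both are related to Syt2 and Cplx1 by their place in the release machinery and not by a role restricted to PV cells. Of 9 tested genes of the Eya, sine oculis homeobox and Dach families, 1 rose: Six3, a homeobox factor of the forebrain, at 4.20, 4.13 and 4.08 CPM at 6 months and 6.94, 7.21 and 6.32 CPM at 16 months, with a log2 fold change of 0.72 ± 0.087 (adjusted P = 0.00394, edgeR). The median of that list was −0.215, and Eya4 and Six3 thus stood on opposite sides of 0.

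**Figure D4:**
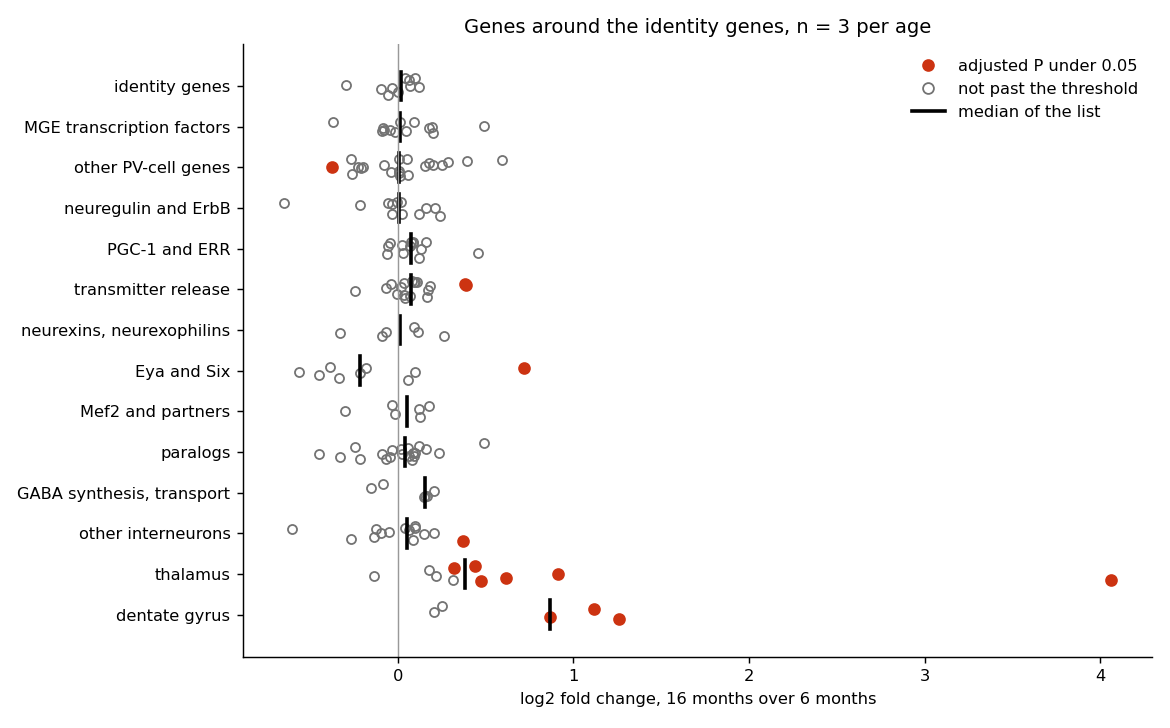
log2 fold change (16 over 6 months, n = 3 per age) of each tested gene in the lists around the identity genes and in 4 marker lists, one point a gene; filled points had an adjusted P under 0.05 and vertical bars are medians. No identity gene is filled, and the median of the list is 0.020, beside 0.38 for the thalamic and 0.86 for the dentate gyrus markers.

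Total counts on genes lay between 29797253 and 46519280 per sample, and 3 counts, taken as the floor, corresponded to between 0.064 and 0.10 CPM. Markers of excitatory cortical neurons were present in every sample, with a summed level of 5470 to 5720 CPM at 6 months and 5630 to 6540 CPM at 16 months, and 0 of 10 were called. Of 6 genes for GABA synthesis and transport and of inhibitory lineage, 0 were called (1100 to 1130 and 1230 to 1250 CPM, median log2 fold change 0.15). Of 14 genes of other interneuron classes, 1 rose: Calb2 at a log2 fold change of 0.37 ± 0.072 (adjusted P = 0.0348, edgeR; past the threshold in 12 of 16 alternatives and up to 0.192 in the same 4), and the list summed to 903 to 913 CPM at 6 months and 894 to 912 CPM at 16 months. Markers of regions next to the cortex were higher at 16 months: 6 of 10 tested thalamic genes rose (Prkcd, Shox2, Tcf7l2, Tnnt1, Plekhg1 and Ramp3; summed level 109 CPM in the lowest and the highest sample at 6 months, 138 to 148 CPM at 16 months), 2 of 9 striatal genes (Penk and Pde10a, 808 to 827 and 916 to 926 CPM), 3 of 5 dentate gyrus genes (Dsp, Lct and C1ql2, 49.7 to 52.5 and 70.4 to 74.5 CPM) and 1 of 6 choroid plexus genes (Ttr, 16.7 to 17.7 and 25.1 to 27.9 CPM). Over all tested genes, 286 of 17120 (1.67%) were called with all samples. Without any 1 of the 6-month replicates or replicate 3 at 16 months, calls over all genes also fell, to between 48 and 58. In these fits the marker counts were 2 of the thalamic (Prkcd and Shox2) and 0 of the striatal genes. Those of the dentate gyrus were 2 (Dsp and Lct) and of the choroid plexus 1. Thalamic and striatal neurons are known to transcribe Syt2, Cplx1, Six3 or Erbb4, and the part of these regions in the values above was not tested. Of hindbrain genes 1 of 5 passed the filter, and its summed level was 0.320 to 0.367 CPM at 6 months and 0.255 to 0.498 CPM at 16 months. Of 6 markers each, 1 astrocyte gene fell (Gfap, log2 fold change −0.47; list sums 5430 to 5780 and 5820 to 6560 CPM at 6 and 16 months), as did 1 microglial gene (Aif1, −0.43; 346 to 357 and 357 to 366 CPM) and 1 endothelial gene (Kdr, −0.39; 142 to 144 and 132 to 136 CPM). Aif1 and Kdr each passed in 11 of 16 alternatives and in 2 of the 6 that left out a sample (adjusted P up to 0.184 and 0.151, edgeR), and Gfap passed in all 16. None was called for oligodendrocytes (6810 to 6880 and 6870 to 6900 CPM) or their precursors (233 to 244 and 241 to 301 CPM).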

How the data were processed

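RNA from 6 samples (3 per age, grouped by the labels' age and titles) was made into TruSeq polyA libraries. The deposited values are raw counts per Ensembl gene, made by the authors after alignment to mm10 with STAR. The paper names HTSeq for counting and the submitters' processing notes name featureCounts; the tables end with the unassigned-read lines that HTSeq writes, which were left out of library sizes and tests. The strand setting is not given in the sources used here. The samples of each age are 3 brains per the paper. The labels alone set the groups, and no pair of samples within an age differed by as little as sampling noise.

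Of 38355 genes, 36602 had an identifier in GENCODE's GRCm38 annotation, as did all genes of the lists. Counts were fitted with edgeR 4.0.16 in R 4.3.3 (filterByExpr, TMM, quasi-likelihood test, Benjamini-Hochberg adjustment over 17120 genes, no covariate). Intervals are 95% from the fit. The common biological coefficient of variation was 6.40%. Levels are CPM after TMM scaling, and log2 levels use a prior count of 2. Totals of 29797253 to 46519280 set the depth, and floors cover counting error only. Offsets for GC content and exon length were medians over 20 bins of genes, known for 98.7% of the genes tested. DESeq2 1.42.0 and the other alternatives are given in the closing section. The fits were tested on simulated data. Promoter sequences are RefSeq's (GRCm38.p6), found for all 10 genes. Figures were drawn with matplotlib 3.10.9. The members and lists were chosen with earlier results of these data known. Named are the members, Pvalb, the paralogs, and of each pathway list the genes called or else the 2 with the largest absolute log2 fold change. Of marker lists, the called genes and the summed level are given.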

Additional observations from a re-analysis of the deposited data

How the results depend on the processing

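Of 16 alternatives, 6 left out a sample. The number of identity genes called, 0 as reported, was 1 (Eya4) with GC content and length offsets, 1 with these offsets and the replicate block, and 0 to 1 with a sample left out (1 without replicate 2 at 16 months); in the other 8 it was 0. For Eya4 these log2 fold changes were −0.24 and −0.24 (adjusted P = 0.0362 and 0.0251, edgeR), and −0.41 to −0.23 with a sample left out. The genes called in the pathway and paralog lists, 4 as reported, were 8 with the replicate block, 17 with the offsets and 26 with both. With a sample left out they were 1 to 20: 1 without any of the 6-month replicates or replicate 3 at 16 months, 9 without replicate 1 and 20 without replicate 2 at 16 months. Values near 0 changed sign. Syt2 was −0.013 with upper quartile normalization, −0.0020 with no filter on low counts, −0.042 with offsets, −0.041 with offsets and block, and −0.028 to 0.038 with a sample left out. Mef2c was 0.012 with offsets, with and without block, and −0.113 to 0.042 with a sample left out. In the same way Cplx1 ran from −0.012 to 0.082 and Ppargc1a from −0.019 to 0.163. Among other genes, offsets without and with block gave −0.0015 and −0.0012 for Sox13, −0.034 and −0.025 for Erbb2, and 0.029 and 0.037 for Nxph2. Leaving out a sample gave −0.112 to 0.033 for Sox5, −0.096 to 0.154 for Sox13, −0.090 to 0.171 for Erbb2, −0.012 to 0.047 for Egfr, −0.058 to 0.298 for Ppargc1b, −0.116 to 0.055 for Mef2a, −0.22 to 0.116 for Nxph2 and −0.87 to 0.29 for Nkx2-1. None of these reversed values passed the threshold; the cause was not tested. Lhx6, Sox6, Erbb4, Btbd11, Eya4, Nxph1 and Pvalb kept their sign in all 16, but with a sample left out Lhx6 ran from 0.022 to 0.121, Sox6 from 0.059 to 0.141, Btbd11 from 0.060 to 0.155, Nxph1 from −0.096 to −0.016 and Erbb4 from −0.18 to −0.017. The lowest Erbb4 value, without replicate 2 at 16 months, had a 95% interval of −0.305 to −0.056 (adjusted P = 0.058, edgeR). The highest values of Btbd11 and Ppargc1a also had intervals off 0. For Btbd11, without replicate 2 at 16 months, it was 0.0115 to 0.299 (adjusted P = 0.138, edgeR). For Ppargc1a, without replicate 1 at 16 months, it was 0.0495 to 0.277 (0.0862), and with offsets and block 0.0244 to 0.169 (0.0604). Over all genes, 286 calls became 783 with the block, 2430 with offsets, 3319 with both, 648 with no filter, 470 with DESeq2, and 48 to 2211 with a sample left out. Deviations of same-numbered samples correlated at 0.180, 0.0958 and 0.0351, and 5 of 6 samples correlated best with their own number, a hint of pairing from the data. Same-numbered samples also shared the sign of the correlation of deviation with GC content. At 6 and 16 months it was 0.16 and 0.588 in replicate 1, −0.13 and −0.582 in replicate 2, and −0.023 and −0.0545 in replicate 3. The part of GC content in the hint was not tested. The labels name no shared litter, batch or day, and the paper's methods name no block, so the main fit held age alone. With 3 samples an age, changes inside a given interval that crosses 0 cannot be told from none.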
